A study of Homo sapiens with 3 samples.

Results

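Signalling by the TGF-beta superfamily was described through 10 genes in CaSki, a cell line established from an epidermoid carcinoma of the cervix. The genes were 6 ligand genes (INHBA, TGFB1, TGFB2, BMP2, BMP4 and BMP7), the antagonist genes FST and NOG, the receptor gene TGFBR2 and the target gene ID1. All 10 were found among the 23277 gene symbols, and 8 of the 10 (not BMP7 and FST) were among the 11401 symbols, small RNAs left out, whose mean level reached 1 FPKM. FPKM scales the fragments of a gene to its transcript length and to all mapped fragments, so levels of different genes can be set side by side. The genes were chosen by name with earlier results of these libraries known, among them the low NOG level with NANOG. Their differences are therefore a description and were not tested.

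Total RNA was sequenced from 3 groups of 1 library each. Control cells carried the empty pMSCV retroviral vector and received an siRNA against GFP; the second group carried pMSCV with FLAG-NANOG and received the same siRNA; the third carried FLAG-NANOG and received an siRNA against HDAC1. They are called the empty vector, NANOG and HDAC1 siRNA libraries below, and the last of these also carries NANOG. NANOG is a homeobox factor that maintains pluripotency. HDAC1 removes acetyl groups from histones as part of corepressor complexes. The labels do not say whether the cells were 1 clone or a pool, and HDAC1 siRNA without NANOG was not analysed here. With 1 library a group no difference has a replicate check, and differences between libraries and differences between treatments cannot be told apart. In bulk RNA, fewer cells of a type and less RNA per cell cannot be told apart either.

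The libraries followed their labels for NANOG, at 0.0357, 298 and 325 FPKM in the order above. HDAC1 was at 19.0 FPKM with empty vector, 108 FPKM with NANOG but only 12.8 FPKM with HDAC1 siRNA, so it was highest in the NANOG library. Absolute depth was unknown. For each pair of libraries, the most frequent ratio of values under 0.3 FPKM lay within 1.019-fold. It was searched only among nearly equal values, so a large difference in depth would not be seen this way. Squamous epithelial markers were present (7 or 8 of 8 at 1 FPKM or more, with a sum of 2836 to 3282 FPKM). Endothelial markers (4 genes, sum 0.289 to 0.493 FPKM) and fibroblast markers (6 genes, sum 0.0934 to 1.04 FPKM) had no gene at 1 FPKM or more. The fibroblast sum was highest in the NANOG library, where COL1A2 alone gave 0.948 FPKM. Of 4 blood markers only CD68, a lysosomal gene, exceeded 1 FPKM (50.7 to 61.2 FPKM), while PTPRC was at most 0.0148 FPKM.

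Ligands of this superfamily bind pairs of type I and type II receptor kinases, which phosphorylate SMAD proteins. TGF-beta and activin act mainly through SMAD2 and SMAD3, whereas BMPs act through SMAD1, SMAD5 and SMAD9, and SMAD4 joins both branches. Follistatin (FST) traps activins, noggin (NOG) traps BMPs, and ID genes are direct targets of BMP signalling. In squamous epithelium TGF-beta is known for restraining proliferation and for inducing matrix genes.

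The promoters of ID1, ID3 and INHBA are shown because these are the genes, among those with an entry, whose levels carry the contrasts described here: INHBA was low and ID1 high in the NANOG library, and ID3 is the BMP target that differed most. RefSeq (GRCh38.p14) promoter entries matched 7 of the 10 genes (not NOG, BMP2 and BMP7). Each sequence below is the 250 bases before the start of transcription on the gene's strand, 5′ to 3′, with the searched motifs in capitals. ID1 lies at chr20:31605039-31605288, plus strand; ID3 at chr1:23559502-23559751, minus strand; INHBA at chr7:41703091-41703340, minus strand.
ID1: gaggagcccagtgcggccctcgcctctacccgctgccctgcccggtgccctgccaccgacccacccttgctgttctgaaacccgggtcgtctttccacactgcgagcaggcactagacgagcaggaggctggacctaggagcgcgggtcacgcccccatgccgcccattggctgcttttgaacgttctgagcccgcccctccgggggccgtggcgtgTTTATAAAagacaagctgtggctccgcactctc
ID3: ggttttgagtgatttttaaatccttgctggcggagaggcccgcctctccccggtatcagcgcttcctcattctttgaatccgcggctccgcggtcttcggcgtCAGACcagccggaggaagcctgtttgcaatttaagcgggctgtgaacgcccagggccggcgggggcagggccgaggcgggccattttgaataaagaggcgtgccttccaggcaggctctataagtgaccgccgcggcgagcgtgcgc
INHBA: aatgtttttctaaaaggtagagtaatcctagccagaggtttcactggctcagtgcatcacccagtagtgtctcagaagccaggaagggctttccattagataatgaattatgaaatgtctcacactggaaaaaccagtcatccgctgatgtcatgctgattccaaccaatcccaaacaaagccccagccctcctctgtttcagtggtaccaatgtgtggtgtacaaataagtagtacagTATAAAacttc

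The motifs were searched on both strands. They were the TATA box TATAAA, the SMAD box CAGAC, the GC-rich SMAD element GGCGCC, the AP-1 element TGACTCA and the cyclic AMP response element TGACGTCA. In ID1, TATAAA matched at bases -31 to -26, counted back from the start, and overlapped a match on the other strand at -33 to -28. In INHBA it matched at -11 to -6. ID3 had no TATAAA and 1 CAGAC at -147 to -143. TATAAA was in 10.7% of the 35116 promoter entries of the same length, CAGAC in 38%, GGCGCC in 16.4%, TGACTCA in 4.2% and TGACGTCA in 1.65%. TGFB2 also held TATAAA (-29 to -24) and 2 CAGAC boxes (-243 to -239 and -53 to -49). These matches describe letters in a window and show no binding.

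**Figure D1:**
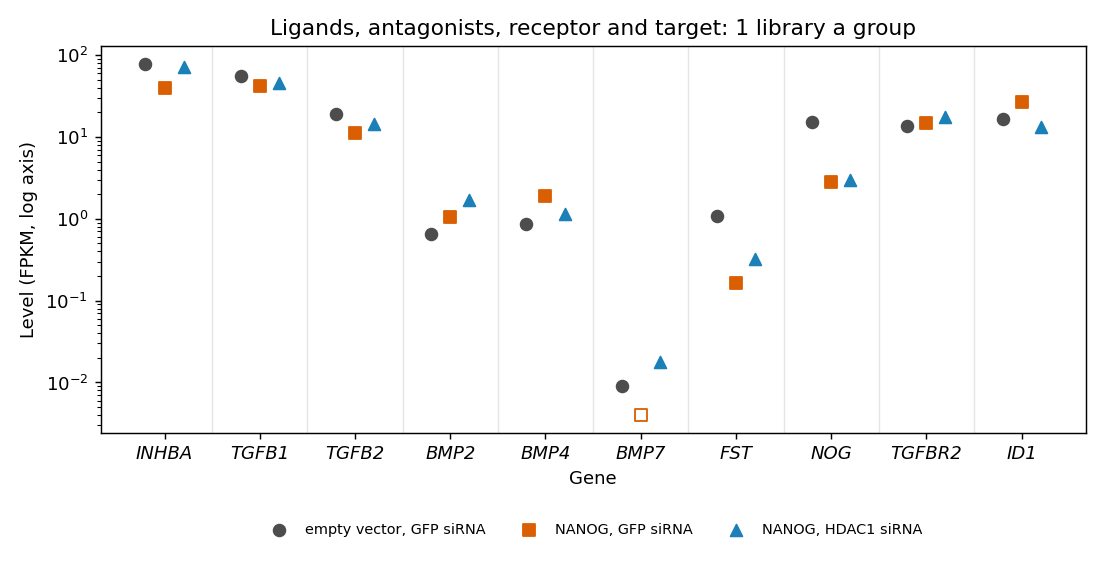
Level of each of the 10 genes in FPKM on a log axis, with 1 point a library; the open square is BMP7, listed at 0 in the NANOG library and drawn at the foot of the axis. NOG and FST are highest with empty vector, INHBA is lowest and ID1 highest in the NANOG library, and BMP7 lies near 0 throughout.

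The first comparison set NANOG against empty vector cells, both with GFP siRNA. The BMP antagonist gene NOG was much lower with NANOG, the TGF-beta and activin ligand genes were lower, and BMP4 and ID1 were higher. Differences are given on the log2(FPKM + 1) scale, which understates those of low genes, and a size of 1 (2-fold) was taken as the threshold. Only NOG passed it, on the lower side. Among all 11401 genes 1.22% passed on the lower side and 0.675% on the higher side, and no count over the 10 genes is read against these shares because the genes were chosen on this contrast. The member nearest to the threshold from inside was NOG (-2.10), well past it, and from outside INHBA (-0.98). Of the 8 genes past the filter, 4 were higher and 4 lower, with a median of -0.13 beside -0.01 for all genes. BMP2 and BMP4 were below 1 FPKM with empty vector and passed the filter only through the NANOG-carrying libraries.

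Among the activin and TGF-beta ligands, INHBA had the largest difference. INHBA encodes the beta A subunit, which pairs with itself to form activin A. Antisense transcripts such as INHBA-AS1 overlap some of these genes, and since the strand setting of the counting is not known their reads cannot be told apart from the sense gene's. It was at 78.9 FPKM in the empty vector library, 39.5 FPKM in the NANOG library and 71.8 FPKM in the HDAC1 siRNA library. The NANOG library was thus 2.00-fold below the empty vector library, and the HDAC1 siRNA library was close to the empty vector level (difference -0.13; after rescaling to TPM 0.00, beside a median of 0.13 for all genes). TGFB2, which encodes an isoform of TGF-beta, was at 19.0, 11.2 and 14.4 FPKM in library order, 1.69-fold lower with NANOG. TGFB1, the gene of the most widely expressed isoform, was at 54.9, 41.7 and 45.1 FPKM. All of these ligand genes were highest with empty vector and lowest in the NANOG library.

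BMP ligand transcripts were scarce. BMP2 was at 0.649 FPKM in the empty vector library, 1.06 FPKM in the NANOG library and 1.67 FPKM in the HDAC1 siRNA library, highest in the HDAC1 siRNA library. BMP4 was at 0.874, 1.89 and 1.14 FPKM, highest in the NANOG library at 2.16-fold the empty vector value. BMP7 was at 0.00896 FPKM with empty vector, listed at 0 with NANOG and at 0.0176 FPKM with HDAC1 siRNA. The ratio of the values above 0 was 1.96, about that of 1 and 2 fragments, and no fold is given. The highest BMP ligand value, 1.89 FPKM, thus lay below every value of TGFB2.

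The antagonists were both highest with empty vector. NOG encodes noggin, a secreted protein that binds BMPs and keeps them from their receptors. It was at 15.3 FPKM in the empty vector library, 2.80 FPKM in the NANOG library and 2.94 FPKM in the HDAC1 siRNA library. Both libraries that carry NANOG were low and lay within 1.05-fold of each other, 5.47-fold and 5.21-fold below empty vector. FST, whose product follistatin binds activins nearly irreversibly, was at 1.08, 0.163 and 0.325 FPKM. Its NANOG value was 6.67-fold below empty vector, which the log2(FPKM + 1) scale shows as -0.84. With a pseudocount of 0.1 FPKM in place of 1 FPKM that difference was -2.17.

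TGFBR2, the type II receptor kinase for TGF-beta, was at 13.5 FPKM in the empty vector library, 14.8 FPKM in the NANOG library and 17.4 FPKM in the HDAC1 siRNA library. Its highest and lowest values differed by 1.29-fold. ID1, an inhibitor of basic helix-loop-helix factors, was at 16.3, 27.0 and 13.2 FPKM. It was highest in the NANOG library, 1.65-fold above empty vector and 2.05-fold above HDAC1 siRNA, and its HDAC1 siRNA value was the lowest of the libraries.

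**Figure D2:**
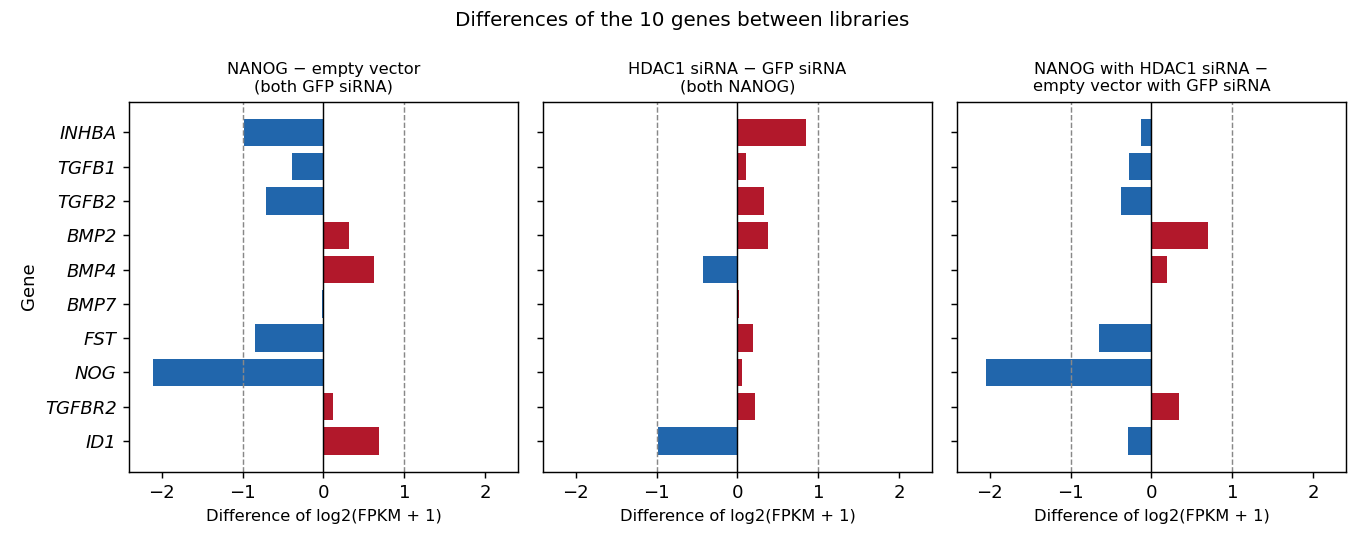
Difference of log2(FPKM + 1) for each of the 10 genes in the 3 comparisons, which share libraries; dashed lines mark 2-fold. NOG alone passes a dashed line, at -2.10 with NANOG and -2.05 with NANOG and HDAC1 siRNA, and INHBA and ID1 point opposite ways in the first and second panels.

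The second comparison set HDAC1 siRNA against GFP siRNA in NANOG cells and shares the NANOG library with the first. INHBA was higher with HDAC1 siRNA (0.85) and ID1 lower (-0.99), while NOG hardly differed (0.05). None of the 8 genes passed the threshold, which 0.0877% of all genes passed on the higher side and 0.211% on the lower. ID1 lay closest to it, and with pseudocounts of 0.5 and 0.1 FPKM it passed (-1.01 and -1.03). INHBA passed after rescaling to TPM (1.03), which brought the median of all genes in this comparison from 0.01 to 0.18. TPM divides by the sum of all values, of which small RNAs made up 21.2%, 23.1% and 16.0% in library order. Without small RNAs the sums were 521017, 524374 and 504674 FPKM. The part of small RNAs in the differences under TPM was not tested. TGFB2 (0.33), BMP2 (0.38), TGFBR2 (0.22) and TGFB1 (0.11) were also higher with HDAC1 siRNA, and BMP4 was lower (-0.43).

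INHBA and ID1 thus each stood apart in the NANOG library, while their values in the other libraries lay within 1.10-fold (INHBA) and 1.24-fold (ID1). By a rule chosen after the values were seen, a gene was counted when the NANOG library lay at least 0.5 below, or at least 0.5 above, both others on the log2 scale. INHBA was the 1 member counted below, as were 0.675% of all genes, and ID1 the 1 counted above, as were 1.34%. Of the other pathway genes, NBL1, SKI and COL4A1 lay below both and TGFBI and MMP13 above both. MMP13 passed the filter on low values only through its value in the NANOG library. HDAC1, the fibroblast marker COL1A2 and the squamous marker KRT5 were highest in the same library, and their part in these values was not tested. KRT5 was at 555, 959 and 540 FPKM in library order (0.79 with NANOG and -0.83 with HDAC1 siRNA), while the other 7 squamous markers were lower with NANOG than with empty vector. Whether these values reflect the treatment or the library cannot be told apart.

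The third comparison, NANOG with HDAC1 siRNA against empty vector, uses the same libraries again. NOG was the only one of the 8 genes past the threshold (-2.05), which 0.824% of all genes passed on the lower side and 0.368% on the higher. BMP2 was higher (0.70, or 2.58-fold in FPKM). TGFB2 (-0.38), ID1 (-0.29) and TGFB1 (-0.28) were lower and TGFBR2 was higher (0.35). FST was at 0.325 FPKM against 1.08 FPKM, 3.34-fold lower.

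The genes nearest in pattern were taken over the 3 libraries by the Euclidean distance of the differences of both NANOG-carrying libraries from empty vector. For NOG these were C12orf36 (distance 0.07), ARNT2 (0.07) and MB (0.12). C12orf36 was at 13.3, 2.26 and 2.31 FPKM in library order, and ARNT2, a partner of PAS-domain transcription factors, at 15.6, 2.84 and 2.80 FPKM. MB, which encodes myoglobin, was at 4.09, 0.134 and 0.147 FPKM. For ID1 they were EID2 (0.01), KIF1C (0.02) and BRMS1L (0.12). EID2 was at 28.6, 47.2 and 23.4 FPKM, and KIF1C, a kinesin motor gene, at 24.0, 40.0 and 19.3 FPKM. For INHBA they were SYNGR3 (0.06), SCHIP1 (0.11) and ITGA5 (0.18), the last encoding the alpha 5 subunit of the fibronectin receptor, at 52.3, 28.6 and 43.9 FPKM.

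The other genes of the pathway were described from 6 lists that cover 118 symbols, of which 8 are in at least 2 lists. These lists were also chosen with earlier results of these libraries known, so their counts are a description and were not tested. Of 27 other ligands, 26 were listed and 3 passed the filter on low values. INHBB, which encodes the beta B subunit of activins, was at 84.1 FPKM in the empty vector library, 54.0 FPKM in the NANOG library and 51.2 FPKM in the HDAC1 siRNA library. Unlike INHBA it stayed low with HDAC1 siRNA, at a difference of -0.07 from the NANOG library (0.11 under TPM) against 0.85 for INHBA. GDF11, a ligand that signals like activin, was at 4.80, 4.62 and 3.76 FPKM, and INHA, the inhibin alpha subunit, at 1.25, 1.31 and 0.667 FPKM. None of the 3 passed the threshold in any comparison.

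Other antagonists and genes of the latent TGF-beta complex were mostly lower with NANOG. Of 21 genes 9 passed the filter, 7 of them lower and 2 higher, with a median of -0.54 beside -0.01 for all genes. Over all genes 50.8% were lower, and 1.22% at least 2-fold lower. With no filter the median of the 21 genes, many near 0 FPKM, was -0.095. ITGB6, whose integrin alpha v beta 6 releases TGF-beta from its latent form on epithelial cells, was the 1 gene past 2-fold (-1.14). It was at 29.8 FPKM in the empty vector library, 13.0 FPKM in the NANOG library and 12.8 FPKM in the HDAC1 siRNA library, so both NANOG-carrying libraries were low. ITGB8, the beta subunit of another integrin that activates TGF-beta, was at 4.18, 1.74 and 1.72 FPKM, and their partner ITGAV at 21.6, 16.9 and 16.9 FPKM. ITGB6 and ITGB8, like NOG, were thus low in both NANOG-carrying libraries.

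Relatives of follistatin were lower as well. FSTL3, which also binds activins, was at 42.4, 27.4 and 32.05 FPKM in library order. FSTL1, a secreted glycoprotein gene of the same family, was at 116, 65.0 and 77.6 FPKM. NBL1, a BMP antagonist gene of the DAN family, was at 63.1, 43.2 and 63.7 FPKM, which left it low in the NANOG library only. FSTL3 was far more abundant than FST in every library. With HDAC1 siRNA the list of 9 genes had a median of 0.00 against the NANOG library, with 5 higher and 4 lower. Among all genes, 53.35% were higher and 46.6% lower in that comparison, so these counts lie near the shares. Under TPM 8 of the list were higher and 1 lower, with a median of 0.18, close to that of all genes. Against empty vector the median of the list was -0.36 (-0.025 with no filter).

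No receptor or SMAD gene past the filter differed by 2-fold in any comparison. Over all genes only 0.0877% to 1.22% did so on a given side of a comparison. None in lists this short is close to such shares. Of 17 other receptors and coreceptors 9 passed the filter, 4 higher and 5 lower with NANOG and a median of -0.04. Among all genes, 49.2% were higher and 50.8% lower with NANOG, so these counts lie near the shares. The largest range among them was that of BMPR2, at 1.64-fold between its highest and lowest values. TGFBR1, the type I partner of TGFBR2, was at 11.02, 7.96 and 7.79 FPKM. BMPR2, the type II BMP receptor, was at 8.21, 5.02 and 6.03 FPKM, and BMPR1A, a type I BMP receptor, at 8.58, 7.10 and 7.35 FPKM. ACVR1B, the type I activin receptor, was at 8.82, 8.52 and 9.74 FPKM, and BAMBI, a decoy receptor, at 3.83, 5.49 and 5.93 FPKM. The highest receptor level in each library was that of TGFBR2, at 13.5 to 17.4 FPKM.

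Among the libraries, the highest value exceeded the lowest by 1.04-fold for SMAD4, 1.02-fold for SMAD5, 1.15-fold for SMAD2, 1.22-fold for SMAD3 and 1.29-fold for SMAD1. SMAD3 was the most abundant of these, at 19.99, 24.4 and 22.1 FPKM in library order. Regulators of SMADs differed to varying extents. SKIL, a corepressor of SMAD complexes and itself a TGF-beta target, was at 15.1, 9.46 and 11.5 FPKM, and ZFYVE9, which presents SMADs to the receptor, at 9.32, 5.02 and 6.92 FPKM. SMURF2, a ubiquitin ligase for receptors and SMADs, was at 47.0, 30.4 and 35.3 FPKM. TGIF1, another corepressor, was at 47.0, 53.1 and 50.7 FPKM. PMEPA1, a feedback inhibitor, was at 63.8, 50.8 and 50.5 FPKM.

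Of the 18 genes of this list 16 passed the filter. With NANOG 12 were lower and 4 higher (median -0.31), and with HDAC1 siRNA against the NANOG library 12 were higher and 4 lower (median 0.22), with none past 2-fold. Over all genes 50.8% were lower with NANOG and 53.35% higher with HDAC1 siRNA. Under TPM 14 were lower and 2 higher with NANOG (median -0.35, beside -0.05 for all genes). With HDAC1 siRNA 16 were higher and 0 lower on that scaling (median 0.40, beside 0.18 for all genes). These comparisons share the NANOG library. Against empty vector the HDAC1 siRNA library had 6 higher and 10 lower genes of the list (median -0.09). Among all genes, 49.8% were higher and 50.2% lower in that comparison. Under TPM 8 of the list were higher and 8 lower (median 0.04, beside 0.13 for all genes).

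**Figure D3:**
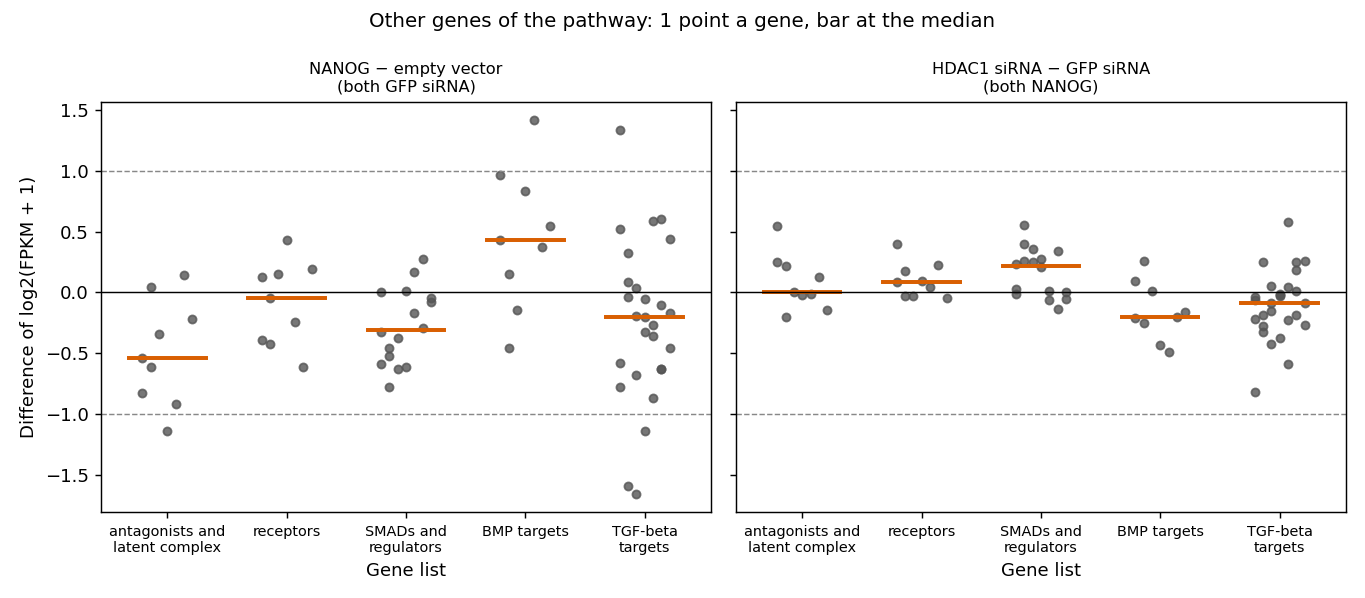
Difference of log2(FPKM + 1) for genes of 5 pathway lists whose mean level reached 1 FPKM, 1 point a gene and a bar at the median; dashed lines mark 2-fold. With NANOG the BMP target list has its median above 0 (0.43) and the list of antagonists and latent complex genes has the lowest (-0.54); with HDAC1 siRNA the 5 medians lie between -0.20 and 0.22.

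BMP target genes were mostly higher with NANOG. Of 14 listed genes besides ID1, 9 passed the filter, 7 higher and 2 lower, with a median of 0.43 (0.18 over all 14 with no filter). ID2 and ID4 were below 1 FPKM with empty vector and passed only through the NANOG-carrying libraries, so the filter favoured the higher side. Over all genes 49.2% were higher and 50.8% lower. ID3, a close relative of ID1, was the 1 gene past 2-fold (1.41), which 0.675% of all genes passed on the higher side. It was at 16.5 FPKM in the empty vector library, 45.6 FPKM in the NANOG library and 32.3 FPKM in the HDAC1 siRNA library, so it was lower than in the NANOG library yet still above empty vector (0.93), whereas ID1 was below empty vector. ID2 was at 0.889, 2.36 and 1.49 FPKM and ID4 at 0.812, 1.35 and 1.05 FPKM. All 4 ID genes were highest in the NANOG library, and 3 of the 4 (not ID1) were above empty vector with HDAC1 siRNA.

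MSX2, a homeobox gene induced by BMPs, was at 2.22, 5.30 and 4.45 FPKM, and its relative MSX1 at 1.38, 2.49 and 2.12 FPKM. SMAD7, an inhibitory SMAD gene that answers both TGF-beta and BMPs, went the other way, at 7.03, 4.84 and 5.99 FPKM. GATA3, an epithelial factor, was at 4.62, 4.08 and 4.12 FPKM. Against the NANOG library the HDAC1 siRNA library had 3 higher and 6 lower BMP target genes (median -0.20; 0.094 with a filter at 5 FPKM, which leaves ID3, SMAD7 and BAMBI), and against empty vector 6 higher and 3 lower (median 0.39; 0.060 with no filter on low values). Among all genes, 53.35% were higher and 46.6% lower with HDAC1 siRNA than in the NANOG library. Against empty vector, 49.8% of all genes were higher and 50.2% lower. SMAD6, the inhibitory SMAD of the BMP branch, did not pass the filter, at 0.0765, 0.242 and 0.0250 FPKM.

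**Figure D4:**
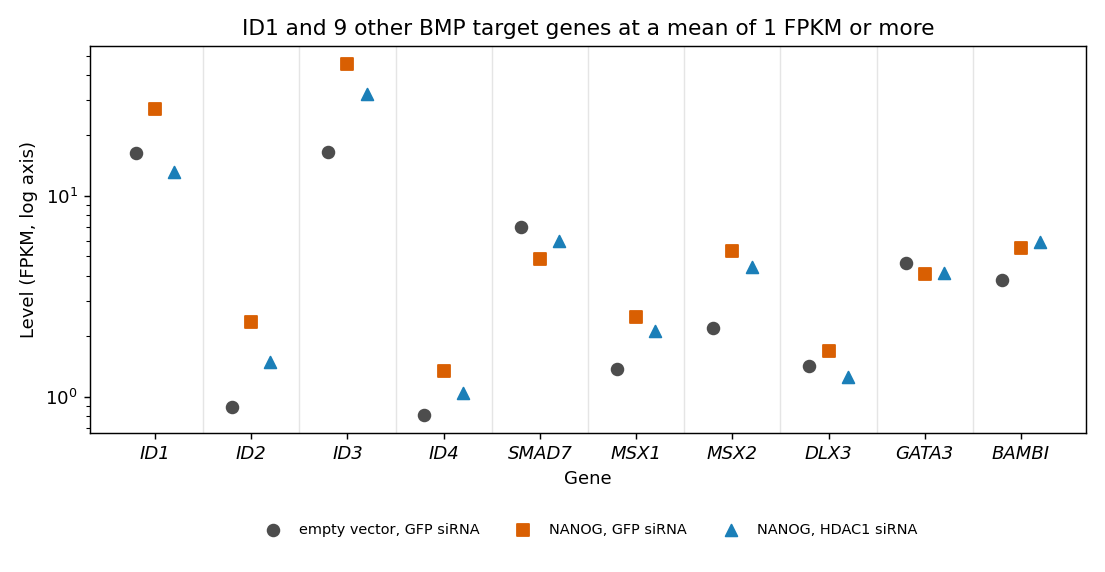
Level in FPKM, on a log axis, of ID1 and of the 9 BMP target genes whose mean level reached 1 FPKM, 1 point a library. ID1, ID2, ID3, ID4, MSX1, MSX2 and DLX3 are highest in the NANOG library, SMAD7 and GATA3 are highest with empty vector, and BAMBI is highest with HDAC1 siRNA.

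TGF-beta target genes were mostly lower with NANOG. Of 30 genes 27 passed the filter, 19 lower and 8 higher, with a median of -0.20. Over all genes 50.8% were lower and 49.2% higher. Of the 27 genes 3 were at least 2-fold lower, as were 1.22% of all genes, and 1 at least 2-fold higher, as were 0.675%. IGFBP3, which encodes an IGF-binding protein, was at 371 FPKM in the empty vector library, 117 FPKM in the NANOG library and 105 FPKM in the HDAC1 siRNA library (-1.66 for NANOG). FN1, the fibronectin gene, was at 264, 86.9 and 76.5 FPKM (-1.59), and ITGB6, itself a TGF-beta target, was the third. Each of these was low in both NANOG-carrying libraries. MMP13, a collagenase gene, was the gene past 2-fold on the higher side (1.34), at 0.312, 2.31 and 0.878 FPKM. MMP13 was below 1 FPKM in the other libraries and passed the filter only through its NANOG value. The filter itself thus placed it on the higher side.

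Other named targets stayed within 2-fold on the log2(FPKM + 1) scale in each comparison. CYR61, a matricellular gene, was at 369, 246 and 235 FPKM in library order. TGFBI, a matrix protein gene named for its induction by TGF-beta, was at 177, 267 and 177 FPKM and so stood high in the NANOG library only. BHLHE40, a transcriptional repressor gene, was at 59.5, 34.3 and 33.4 FPKM, COL4A1, a basement membrane collagen gene, at 14.3, 7.37 and 11.5 FPKM, and TAGLN, an actin-binding protein gene, at 2.90, 1.43 and 1.29 FPKM. With HDAC1 siRNA 19 of the 27 were lower and 8 higher than in the NANOG library, with a median of -0.09 and none past 2-fold. Under TPM the median was 0.10, with 16 higher and 11 lower, which is below the 0.18 of all genes on that scaling. Against empty vector 20 of the 27 were lower and 7 higher (median -0.29), with the same counts under TPM and 3 at least 2-fold lower. Over all genes 46.6% were lower with HDAC1 siRNA than in the NANOG library. Against empty vector 50.2% were lower, and 0.824% at least 2-fold lower.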

How the data were processed

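Total RNA of 3 CaSki groups, 1 library each, was grouped by the sample titles. Per the labels' protocols, libraries were made from 2 ug of RNA with a kit that keeps strand. TopHat2 and Cufflinks were run with hg19, per the submitters' processing notes; which versions, annotation and strand setting is not given in the sources used here. Values were deposited by the authors as FPKM, 1 per gene symbol and library, so a few abundant RNAs in a library lower its other values. No value column was unused.

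Differences were taken between log2(FPKM + 1) values, with a filter at a mean of 1 FPKM and without 1621 small RNA symbols; 2-fold was a rule of size, since 1 library a group allows no test. The members and lists were chosen with earlier results of these data known. Named genes were the 10 members and, per list, those past the filter and 2-fold, the 4 highest in mean and the 3 with the largest range; other names were chosen after their values were seen. Values of 2 genes that this rule names are left out of the text. The 3 nearest genes were taken for the 3 members with the largest range. Alternatives were pseudocounts, filters, scalings and fold rules. Rescaling to TPM divided by a sum that included the small RNA symbols. Only the 2-fold call in the first comparison was tested on simulated data, with larger changes set into genes at 5 FPKM or more. Filters, lists, scalings, nearest genes and the promoter search were not tested this way. Python 3.11.15, numpy 2.4.6, pandas 2.3.3 and matplotlib 3.10.9 were used.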

Additional observations from a re-analysis of the deposited data

How the results depend on the processing

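Pseudocounts of 0.1 and 0.5 FPKM, no filter or a filter at 5 FPKM, rescaling to a common upper quartile, a median log2 ratio of 0 or TPM, and 1.5-fold and 3-fold rules were tried. NOG was past 2-fold with NANOG and with NANOG and HDAC1 siRNA under each pseudocount and scaling. Of 54 recomputed counts of members, 43 were within 1.5 times the reported count, with none against none taken as the same. With a pseudocount of 0.1 FPKM, 1 member was 2-fold higher with NANOG (BMP4, 1.03), 1 lower with HDAC1 siRNA (ID1, also with 0.5 FPKM) and 1 higher in the third comparison (BMP2, 1.24). Under TPM 2 members past the filter were lower with NANOG (NOG and INHBA, -1.03) and 1 higher with HDAC1 siRNA (INHBA). FST failed the filter at 1 FPKM, so counts made with a filter leave it out. With NANOG its difference was past 2-fold under TPM (-1.09) and with pseudocounts of 0.5 and 0.1 FPKM (-1.26 and -2.17). In the third comparison it was past 2-fold with 0.1 FPKM (-1.48). The 1.5-fold rule gave 2 higher and 3 lower with NANOG, 1 higher and 1 lower with HDAC1 siRNA, and 1 higher in the third comparison. The BMP target median with NANOG was 0.67 with a pseudocount of 0.1 FPKM and 0.18 with no filter (0.060 in the third comparison). That of antagonists and latent complex genes was -0.095 with no filter (-0.025 in the third). The BMP target median with HDAC1 siRNA changed from -0.20 to 0.094 with a filter at 5 FPKM, which leaves fewer genes. Over all genes, 19 of 54 recomputed counts moved by more than 1.5 times, among them counts under the fold rules, which change by construction. With 0.1 FPKM they were 138 higher and 216 lower with NANOG, 21 and 47 with HDAC1 siRNA, and 79 higher in the third comparison; TPM gave 21 and 70 higher in the last 2, and a filter at 5 FPKM 27 higher in the third. The 1.5-fold rule gave 396 and 600, 77 and 163, and 203 and 394; the 3-fold rule gave 21 and 34 with NANOG, 4 lower with HDAC1 siRNA, and 14 and 25. No paired analysis was possible because each group has 1 library. Depth is unknown, so BMP7, FST, BMP2 and BMP4 have no interval.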
